A study of Homo sapiens with 6 samples.

Results

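The unfolded protein response and the integrated stress response were examined through 10 genes in Kasumi-1 cells. The genes are EIF2AK3, ERN1, ATF6, ATF4, XBP1, DDIT3, HERPUD1, TRIB3, ASNS and CHAC1. They were picked by symbol through GENCODE release 29, and all 10 were found among the 32364 genes of the deposited table. The mRNA libraries came from 1 acute myeloid leukemia line, Kasumi-1, which expresses the RUNX1-RUNX1T1 fusion. I13, a histone deacetylase inhibitor that contains indole-3-butyric acid, was given at 0.5 µM for 48 h in 3 libraries. The other 3 libraries came from control cells kept for the same 48 h, and the study's methods name DMSO as the vehicle. The study describes its sequencing results as standing for independent experiments. The labels do not say that the 3 samples of a group were separate cultures, so p-values measure the spread between these samples, which may be technical.

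The unfolded protein response relays a load of unfolded protein in the endoplasmic reticulum (ER) to the nucleus. Its sensors are PERK (EIF2AK3), a kinase that phosphorylates eIF2alpha, IRE1alpha (ERN1), an RNase that splices XBP1 mRNA, and ATF6, which is cut in the Golgi to release a transcription factor. The integrated stress response joins PERK with other eIF2alpha kinases. Phosphorylated eIF2alpha lowers general translation and raises translation of ATF4, which then switches on genes of amino acid supply and, with lasting stress, DDIT3 (CHOP). Secretory cells and myeloid precursors that make granule proteins rely on these pathways. An mRNA level per gene reports neither phosphorylation, splicing nor cleavage.

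ATF4 binds the C/EBP-ATF response element (CARE), and ATF6 and XBP1 bind ER stress response elements (ERSE and ERSE-II), which hold a CCAAT box for NF-Y. These elements were searched on both strands of the RefSeq promoter windows (GRCh38.p14), which run from 250 bases before to 50 bases after each start. All 10 genes had at least 1 window. The CARE core TGATGNAA matched ASNS, CHAC1 and HERPUD1 (3 genes) and 4.46% of all genes with a window. The ERSE, read as CCAAT and CCACG with 9 bases of any kind between them, matched XBP1 and 0.0916% of all genes. The ERSE-II, read as ATTGG and CCACG with 1 base of any kind between them, matched HERPUD1 and 0.0696% of all genes. The XBP1-binding core TGACGTG matched none of the 10 genes and 2.40% of all genes. The stretches with these matches are shown because they are the parts of the target promoters through which the pathways are known to act, with the matched letters in capitals. They are XBP1 (chr22:28800578-28800646, minus strand), HERPUD1 (chr16:56931941-56932060, plus strand), CHAC1 (chr15:40953237-40953294, plus strand) and ASNS (chr7:97872444-97872501, minus strand).
XBP1: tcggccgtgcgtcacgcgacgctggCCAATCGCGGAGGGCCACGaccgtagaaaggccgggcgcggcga
HERPUD1: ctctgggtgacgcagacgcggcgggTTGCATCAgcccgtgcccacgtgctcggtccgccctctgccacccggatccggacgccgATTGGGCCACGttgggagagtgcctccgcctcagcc
CHAC1: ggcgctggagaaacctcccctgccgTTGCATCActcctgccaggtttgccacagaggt
ASNS: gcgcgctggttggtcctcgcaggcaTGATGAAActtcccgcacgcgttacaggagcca
The capitals mark the ERSE of XBP1, the CARE core (read on the other strand) and then the ERSE-II of HERPUD1, and the CARE cores of CHAC1 (other strand) and ASNS. The ERSE of XBP1 began 52 bases before the start, the ERSE-II of HERPUD1 117 bases before it, and the CARE core 68 bases before it in ASNS, 176 in HERPUD1 and 209 in CHAC1. The plain CCAAT box occurred in 6 of the 10 genes and in 39.7% of all genes, and it is a part of every ERSE and ERSE-II match. A match describes the letters and does not show that a factor was bound.

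**Figure D1:**
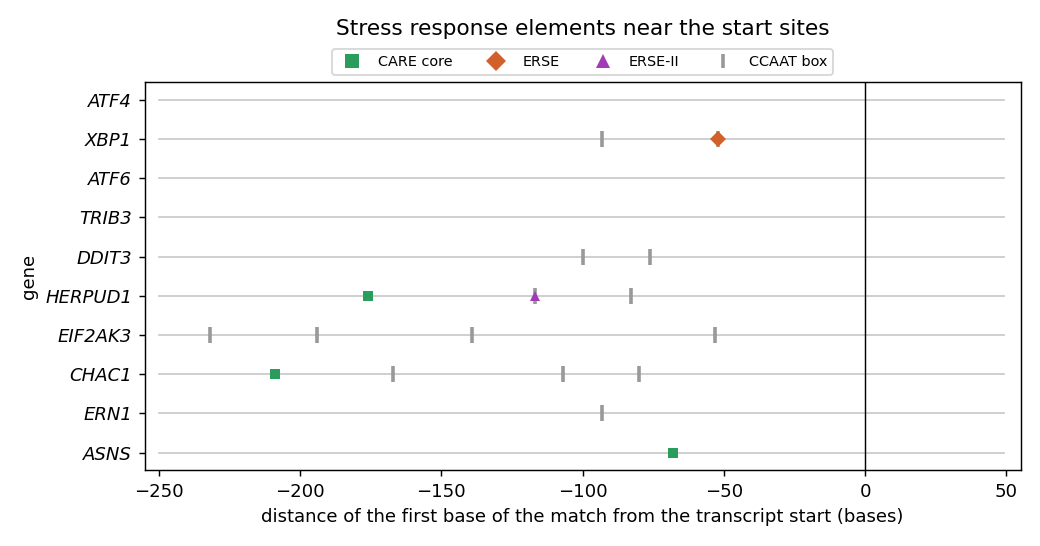
Matches to the searched elements in the promoter windows of the 10 genes. The horizontal axis is the distance in bases of the first base of a match from the transcript start (line at 0), and each row is a gene, ordered by its level. The CARE core is seen in ASNS, CHAC1 and HERPUD1, the ERSE in XBP1 and the ERSE-II in HERPUD1.

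The libraries held between 15281052 and 17221346 mapped fragments, and the mitochondrial genes took between 17.4% and 18.6% of the summed FPKM in each. Of the markers of the line that were looked up, KIT was between 196 and 236 FPKM and RUNX1T1 between 12.5 and 14.4 FPKM. ALB and COL1A1, markers of liver cells and fibroblasts, were listed at 0 in all 6 libraries. EPCAM, an epithelial marker, was between 20.8 and 26.5 FPKM. The other markers looked up, of the line and of other cell types, are not given here. In a principal component analysis of 4133 genes at a mean of 10 FPKM or more, the first component (43.3% of the variance) set control replicate 3 and I13 replicate 2, below called the outlying pair, against the remaining 4 libraries. The second component (20.5% of the variance) set the 3 control libraries (between 0.319 and 0.500) against the 3 I13 libraries (between -0.440 and -0.349). The labels name no batch. Differences are therefore also given inside the 4 libraries and inside the outlying pair. In bulk RNA, fewer cells of a kind and less RNA per cell cannot be told apart.

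Expression is given as FPKM, the fragments of a gene scaled to its exon length in kilobases and to the mapped fragments of the library. Of the 10 genes, only DDIT3 had its fragments recovered with a length other than that of GENCODE release 29. The groups were compared by limma on log2(FPKM + 0.1), and the fold change on this scale understates that of genes with a low FPKM. None of the 10 genes passed an adjusted p of 0.05 together with a log2 fold change of 0.58 in either direction by limma, as did none of the 18726 genes tested (0%). At an unadjusted p under 0.05, 1 of the 10 genes was called by limma, EIF2AK3, and 1 by voom on the recovered fragments, again EIF2AK3. Among all genes tested, 5.14% were called in this way by limma (2.55% higher and 2.59% lower with I13) and 5.35% by voom. EIF2AK3 was also the only 1 of the 10 genes whose groups had separate ranges, with I13 higher. Such separation was seen in 9.52% of all genes tested, 4.88% with I13 higher and 4.64% with I13 lower. The log2 fold change was above 0 for 5 of the genes and below 0 for 5, with a median of 0.0042, beside 0.0058 for all genes tested. All 10 genes passed the minimum mean of 0.1 FPKM.

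The order of the levels ran from ATF4 (mean of 206 FPKM over the 6 libraries) and XBP1 (132) through ATF6 (9.57), TRIB3 (8.89), DDIT3 (3.07), HERPUD1 (2.95), EIF2AK3 (2.39), CHAC1 (1.35) and ERN1 (0.938) to ASNS (0.302). ATF4 and XBP1 lay at the 99.3rd and 98.8th percentile of the genes tested. XBP1 was 13.7-fold above ATF6, the next gene. The ranges over the 6 libraries overlapped between ATF6 and TRIB3, between DDIT3 and HERPUD1, between HERPUD1 and EIF2AK3 and between CHAC1 and ERN1, so these neighbours were not separated. The other neighbours in the order did not overlap in any library.

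**Figure D2:**
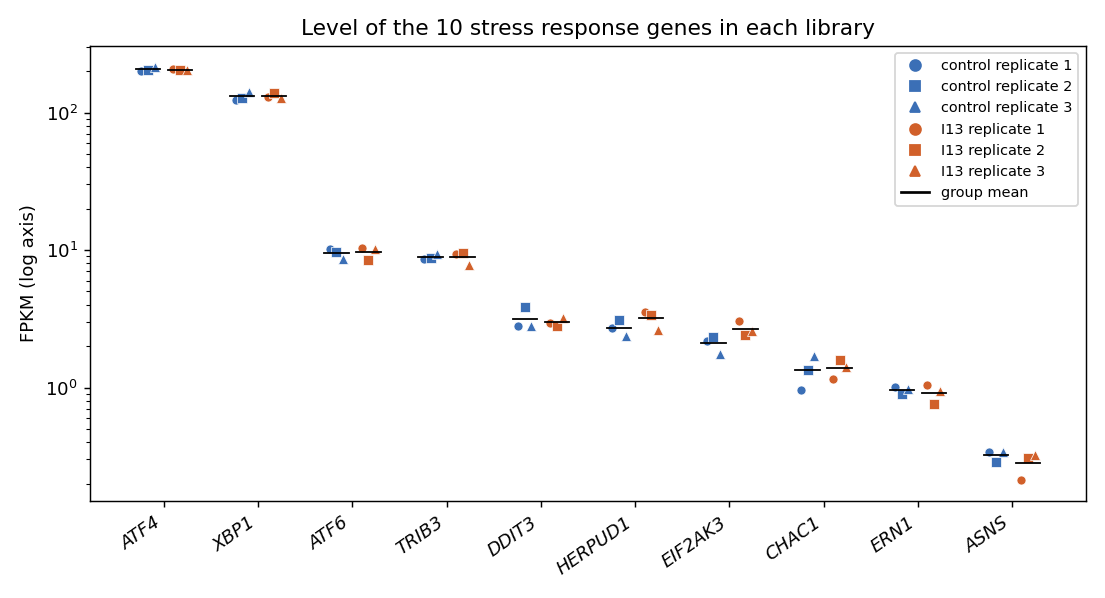
FPKM of the 10 genes in each of the 6 libraries, on a log axis. Points are libraries (blue for control, orange for I13, the shape for the replicate number) and black bars are group means. The genes span from about 0.3 FPKM (ASNS, mean of 0.302) to 206 FPKM (ATF4), while the 2 groups of each gene lie close together.

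The sensors came first. EIF2AK3 encodes PERK, the ER kinase of eIF2alpha. Its level was 2.18, 2.33 and 1.77 FPKM in control replicates 1, 2 and 3 and 3.04, 2.43 and 2.58 FPKM in I13 replicates 1, 2 and 3. The 3 I13 values exceeded the 3 control values, with a narrow gap between control replicate 2 and I13 replicate 2. The means were 2.09 ± 0.291 FPKM (SD, n = 3) and 2.68 ± 0.319 FPKM (SD, n = 3), from 159 to 263 fragments per library. This was a log2 fold change of 0.35 (standard error 0.14, 95% interval from 0.0094 to 0.68), with an unadjusted p of 0.0454 and an adjusted p of 0.947 from limma with Benjamini-Hochberg adjustment. By voom it was 0.36, with an unadjusted p of 0.0123 and an adjusted p of 0.697. Within the 4 libraries the log2 fold change was 0.30 (limma, unadjusted p = 0.0846), and within the pair it was 0.44. The direction was the same in all 17 alternative settings, with log2 fold changes between 0.24 and 0.43. The unadjusted p was above 0.05 in 8 of them and reached 0.155 without I13 replicate 1. It was also above 0.05 without control replicate 1 (0.079), control replicate 3 (0.132) or I13 replicate 3 (0.0883) and with the replicate number as a block (0.0596). EIF2AK3 lies on chromosome 2 from 88556741 to 88627576, on the minus strand. Of its exon bases, 15.1% are shared with exons on the other strand. These belong to AC104134.1, which was listed at 0 in every library, and to AC062029.1, which was between 0.127 and 0.285 FPKM. AC104134.1 also covers 22.8% of the coding bases of EIF2AK3. Whether the counting used the strand is not given in the sources used here, so the level of EIF2AK3 is uncertain to that extent.

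ERN1, the gene of the RNase IRE1alpha (chromosome 17 from 64039142 to 64130819), was at 1.00, 0.896 and 0.983 FPKM in control replicates 1, 2 and 3. In I13 replicates 1, 2 and 3 it was at 1.04, 0.756 and 0.946 FPKM. The highest and the lowest of the 6 values were both from I13 libraries. Its log2 fold change was -0.075 (standard error 0.18, 95% interval from -0.49 to 0.34, unadjusted p = 0.683 from limma). The value was -0.34 inside the outlying pair and 0.058 inside the 4 libraries. The sign changed when I13 replicate 2 alone was left out (0.043) and stayed when control replicate 3 alone was left out (-0.059). ERN2, the relative of ERN1 in secretory epithelia, had at most 1 fragment in a library.

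ATF6 (chromosome 1 from 161766294 to 161964070) had the highest level of the 3 sensors. It was at 10.2, 9.75 and 8.58 FPKM in the control libraries and 10.3, 8.48 and 10.1 FPKM in the I13 libraries, in the order of the replicates. The outlying pair had the 2 lowest values. ATF6 had a log2 fold change of 0.020 (95% interval from -0.22 to 0.26, unadjusted p = 0.85 from limma). Inside the 4 libraries it was 0.038, and inside the pair -0.016. The level of ATF6 was 9.57 FPKM on average against 0.938 for ERN1 and 2.39 for EIF2AK3.

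The transcription factors of the pathways were led by ATF4. ATF4 is the factor whose translation rises when eIF2alpha is phosphorylated (chromosome 22 from 39519695 to 39522685). It was at 202, 205 and 216 FPKM in control replicates 1, 2 and 3 and at 206, 204 and 204 FPKM in I13 replicates 1, 2 and 3. All 3 I13 values lay within the range of the control values. The means were 208 ± 7.15 FPKM (SD, n = 3) and 205 ± 0.892 FPKM (SD, n = 3), from 7854 to 8983 fragments per library. For ATF4 the log2 fold change was -0.019, and its 95% interval, from -0.12 to 0.083, was the narrowest of the 10 genes. It corresponds to a fold between 0.919 and 1.06. Within the 4 libraries the log2 fold change was 0.011 and within the pair -0.078.

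XBP1 encodes the factor that becomes active when IRE1alpha splices its mRNA (chromosome 22 from 28794555 to 28800597). Its level was 123, 129 and 141 FPKM in control replicates 1, 2 and 3. In I13 replicates 1, 2 and 3 it was 129, 139 and 128 FPKM. The outlying pair held the 2 highest values, and the groups overlapped. The means were 131 ± 9.22 FPKM (SD, n = 3) and 132 ± 5.90 FPKM (SD, n = 3). XBP1 thus differed by a log2 fold change of 0.011 (95% interval from -0.14 to 0.16, unadjusted p = 0.87 from limma), 0.029 within the 4 libraries and -0.026 within the pair. Spliced and unspliced XBP1 mRNA are counted together in these values.

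DDIT3 encodes CHOP, a factor linked to cell death under lasting ER stress (chromosome 12 from 57516588 to 57521737). It was at 2.80, 3.87 and 2.81 FPKM in control replicates 1, 2 and 3 and at 2.93, 2.79 and 3.20 FPKM in I13 replicates 1, 2 and 3. Control replicate 2 was the highest library, with 84 fragments, and the other 5 held between 59 and 62. DDIT3 had a log2 fold change of -0.070 (95% interval from -0.41 to 0.27, unadjusted p = 0.642 from limma). This value was -0.10 for the 4 libraries, -0.0097 for the pair and 0.080 without control replicate 2. Of the DDIT3 exon bases, 27.2% are shared with MARS and 4.44% with MBD6 on the other strand, and 8.03% with AC022506.1 on the same strand. MARS was between 22.1 and 25.7 FPKM. The library kit keeps the strand, but whether the counting used it is not given in the sources used here, so the level of DDIT3 is uncertain to that extent.

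The targets came last. HERPUD1, an ER membrane protein of ER-associated degradation (chromosome 16 from 56932048 to 56944863), was at 2.69, 3.07 and 2.37 FPKM in control replicates 1, 2 and 3. It was at 3.57, 3.38 and 2.62 FPKM in I13 replicates 1, 2 and 3. I13 replicates 1 and 2 were the 2 highest libraries, while I13 replicate 3 lay between the control values. The means were 2.71 ± 0.355 FPKM (SD, n = 3) and 3.19 ± 0.506 FPKM (SD, n = 3). HERPUD1 had a log2 fold change of 0.22 (95% interval from -0.14 to 0.58, unadjusted p = 0.186, adjusted p = 0.983 from limma). Within the 4 libraries it was 0.084 and within the pair 0.50. The value depended on single libraries. By limma it was 0.13 (unadjusted p = 0.461) when control replicate 3 was left out, 0.14 (unadjusted p = 0.459) when I13 replicate 1 was left out and 0.35 (unadjusted p = 0.0484) when I13 replicate 3 was left out. HERPUD1 is the gene whose promoter holds both an ERSE-II and a CARE core.

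TRIB3, a pseudokinase induced by ATF4 and CHOP (chromosome 20 from 362835 to 397559), was at 8.54, 8.79 and 9.32 FPKM in the control libraries. It was at 9.38, 9.58 and 7.74 FPKM in the I13 libraries. I13 replicates 1 and 2 were the highest and I13 replicate 3 the lowest of the 6. TRIB3 had a log2 fold change of -0.0024 (95% interval from -0.22 to 0.22, unadjusted p = 0.98 from limma), -0.024 within the 4 libraries and 0.040 within the pair.

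CHAC1 degrades glutathione and is a target of ATF4 (chromosome 15 from 40952962 to 40956519). It varied most among the 10 genes, at 0.959, 1.33 and 1.70 FPKM in control replicates 1, 2 and 3 and 1.16, 1.57 and 1.40 FPKM in I13 replicates 1, 2 and 3. The lowest and the highest value were both from control libraries, 1.77-fold apart. Between 34 and 58 fragments per library stood behind these values. CHAC1 had a log2 fold change of 0.070 (95% interval from -0.46 to 0.60, unadjusted p = 0.763 from limma), 0.16 within the 4 libraries and -0.11 within the pair.

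ASNS, asparagine synthetase, makes asparagine from aspartate and is a target of ATF4 (chromosome 7 from 97852118 to 97872542). It was listed at 0.339, 0.288 and 0.339 FPKM in control replicates 1, 2 and 3 and 0.211, 0.309 and 0.323 FPKM in I13 replicates 1, 2 and 3, from 15 to 26 fragments per library. I13 replicate 1 was the lowest library and the other 5 lay close together. For ASNS the log2 fold change was -0.16, and its 95% interval, from -0.82 to 0.51, was the widest of the 10 genes (unadjusted p = 0.598 from limma). The 4 libraries gave -0.18 and the pair -0.10. Without I13 replicate 1 it was -0.017, and without I13 replicate 3 it was -0.24. In GENCODE release 29, 96.1% of the 1752 coding bases of ASNS and 44.6% of its exon bases also belong to AC079781.5, a transcript of the same strand, which was itself listed between 0.169 and 0.363 FPKM. HTSeq is named in the submitters' processing notes, and how it treated fragments of 2 genes is not given there. Of 70 protein-coding genes that share at least 90% of their exon bases with another gene of the same strand, 94.3% were under 0.5 FPKM. Of 13946 protein-coding genes that share under 1%, the share was 35.8%. With 44.6% of its exon bases shared, ASNS belongs to neither class, so these shares do not describe it. The level of ASNS is uncertain because the treatment of fragments of 2 genes is not given, and the part of the shared exons in it was not tested.

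**Figure D3:**
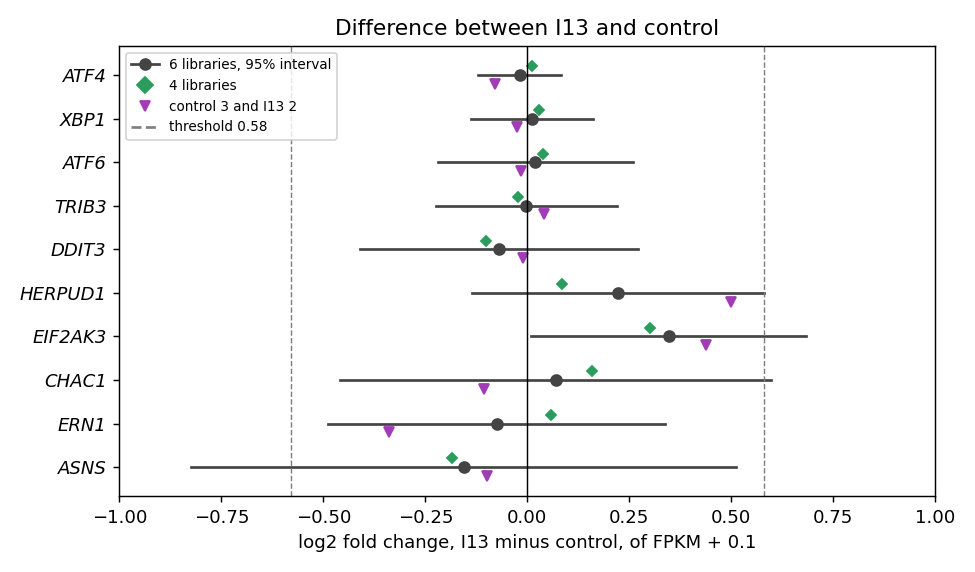
Log2 fold change of the 10 genes, I13 minus control, on the log2(FPKM + 0.1) scale. Dots and lines are the limma estimates from 6 libraries with their 95% intervals, diamonds the 4 libraries without the outlying pair (control replicate 3, I13 replicate 2), and triangles that pair alone; dashed lines mark 0.58 in either direction. The interval of EIF2AK3 begins at 0.0094, just above 0, and the intervals of the other 9 genes include 0.

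These intervals bound the differences only as far as the spread between these libraries, which may be technical, and the listed levels allow. For 6 of the 10 genes (ATF4, XBP1, ATF6, TRIB3, DDIT3 and ERN1) the whole 95% interval lay within 0.58 in either direction. For all 10 it lay within a fold of 2, by limma and by voom. The bound nearest to a fold of 2 was the lower one of ASNS, at a log2 fold change of -0.82 by limma and -0.85 by voom.

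The spread within the groups was set against the counting error of the fragments. For ATF4 the coefficient of variation within groups was 2.47%, where counting alone gives 1.08%. For XBP1 it was 5.88% against 1.23%, and for ATF6 9.68% against 2.84%. These 3 genes varied more than their counting error, as did EIF2AK3 (12.8% against 6.85%) and HERPUD1 (14.8% against 6.32%). For DDIT3 (14.9% against 12.5%) and ASNS (15.9% against 21.2%) the spread was near the counting error or below it.

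The outlying pair had values separate from those of the 4 libraries in 3 of the 10 genes, beside 27.3% of all genes tested. XBP1 was 140 FPKM on average in this pair and 127 FPKM in the 4 libraries, and CHAC1 was 1.64 and 1.21 FPKM. ATF6 went the other way, with 8.53 FPKM in the pair and 10.1 FPKM in the 4 libraries. Since each group holds 1 library of the pair, this difference does not separate I13 from control, and it adds to the spread within both groups.

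**Figure D4:**
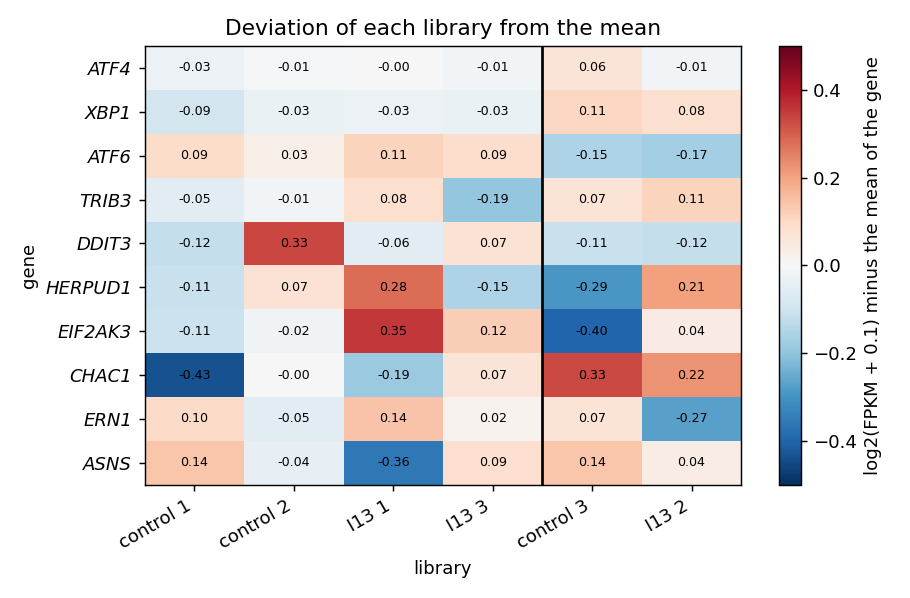
Deviation of log2(FPKM + 0.1) from the mean of each gene (rows) in each library (columns), printed in each cell and coloured from blue (below) to red (above). The vertical line marks off the outlying pair, control replicate 3 with I13 replicate 2. XBP1 and CHAC1 are above their mean and ATF6 is below it in both libraries of the pair.

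The ATF4 targets among the genes (ASNS, TRIB3, CHAC1 and DDIT3) were joined as a mean of their z-scores in each library. This mean was -0.49, 0.38 and 0.48 in control replicates 1, 2 and 3 and -0.54, 0.33 and -0.16 in I13 replicates 1, 2 and 3. The libraries of the groups were interleaved.

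The other genes of the pathways were followed through 7 lists with 112 genes, of which 110 were in the table and 106 were tested. None passed the adjusted p with the fold threshold by limma or by voom. At an unadjusted p under 0.05, 5 genes were higher and 2 were lower in the I13 libraries by limma. Together they are 6.60% of the genes tested, beside 5.14% of all genes. By voom 6 of 105 list genes had an unadjusted p under 0.05, beside 5.35% of all genes. The groups did not overlap for 5 higher and 6 lower list genes of the 106, where 4.88% and 4.64% of all genes did so. The median log2 fold change over the lists was 0.013, with 60 values above 0 and 46 below, beside 9702 above and 9024 below among all genes tested.

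The eIF2alpha kinases, eIF2 and eIF2B made up a list of 14 genes, all tested, with a median log2 fold change of -0.015. EIF2S3 and EIF2S2, the gamma and beta subunits of eIF2, had the highest levels of this list, with means of 103 and 44.9 FPKM in control and 99.4 and 46.7 FPKM in I13 libraries. PPP1R15A (GADD34), which guides the phosphatase that removes the phosphate from eIF2alpha, was lower. It was at 5.95, 5.75 and 5.76 FPKM in the control libraries and 5.42, 5.0001 and 4.61 FPKM in the I13 libraries, with no overlap. By limma its log2 fold change was -0.21 ± 0.081 (standard error), at an unadjusted p of 0.0327 and an adjusted p of 0.947, and by voom the unadjusted p was 0.0607. The 4 libraries gave -0.22 and the pair -0.20.

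The partners of ATF4 and other stress regulators (10 of 14 genes tested, median -0.028) held no gene with an unadjusted p under 0.05 by limma. By voom 3 genes were under it, KLHL24 (0.0112), DDIT4 (0.0159) and CEBPB (0.048), beside 5.35% of all genes. They are among the 6 genes so called by voom over all the lists. KLHL24, named after its values were seen, had a log2 fold change of -0.27 by limma, -0.16 in the 4 libraries and -0.49 in the pair. CEBPG, a dimer partner of ATF4, was at 11.96 FPKM in control and 11.9 FPKM in I13 libraries on average. CEBPB was at 6.99 ± 0.782 and 8.73 ± 2.25 FPKM (SD, n = 3 each), and its log2 fold change of 0.29 was 0.0045 for the 4 libraries and 0.87 for the pair. I13 replicate 2 alone, at 11.2 FPKM, stood above the other libraries of CEBPB, which were between 6.11 and 8.03 FPKM. NUPR1 was listed at 0 in all 6 libraries. DDIT4 (REDD1), an inhibitor of mTORC1 signalling chosen here after its values were seen, was the only list gene past the fold threshold, at a log2 fold change of -0.79 (unadjusted p = 0.111 from limma). It was at 7.62, 3.31 and 1.99 FPKM in control replicates 1, 2 and 3 and between 1.75 and 2.47 FPKM in the I13 libraries. DDIT4 had a log2 fold change of -1.23 in the 4 libraries and, with the opposite sign, 0.11 in the pair. Of the DDIT4 exon bases, 41.2% are shared with exons on the other strand, so its level carries the same doubt as that of DDIT3.

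The amino acid supply targets of ATF4 (17 of 18 genes tested, median 0.028) were led by ALDH18A1, of proline synthesis, and SLC1A5, a glutamine transporter. ALDH18A1 was at 60.5 ± 4.03 FPKM in control and 65.5 ± 1.34 FPKM in I13 libraries (SD, n = 3 each), and SLC1A5 at 56.4 ± 7.51 and 58.4 ± 3.46 FPKM. SLC1A4, a carrier of neutral amino acids, was at 2.59, 3.37 and 3.48 FPKM in control and 3.59, 4.32 and 3.89 FPKM in I13 replicates 1, 2 and 3. All I13 values were above the control values. By limma SLC1A4 differed by 0.32 ± 0.14 (log2 fold change, standard error), at an unadjusted p of 0.0495 and an adjusted p of 0.947. The 4 libraries gave 0.33 and the pair 0.30. Leaving out control replicate 1 lowered it to 0.19 (limma, unadjusted p = 0.135), and the unadjusted p was also above 0.05 with a pseudocount of 1, no filter, median scaling, quantile normalization or no variance trend. The list of cytosolic tRNA synthetases held 12 genes, all tested, with a median of -0.014. AARS, the alanyl-tRNA synthetase, was lower, at 49.4 ± 1.12 FPKM in control and 45.7 ± 0.657 FPKM in I13 libraries (SD, n = 3 each), with no overlap. Its log2 fold change was -0.11 (unadjusted p = 0.0301, adjusted p = 0.947 from limma). IARS, with 44.5 and 45.8 FPKM, did not pass the test.

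The IRE1 partners and XBP1 targets (17 of 18 genes tested, median 0.046) were led by PDIA6, a disulfide isomerase of the ER, with 113 and 119 FPKM, and RTCB, the ligase that joins the spliced XBP1 mRNA, with 34.5 and 32.8 FPKM. ERP44, a thioredoxin-fold protein that retains client proteins in the early secretory pathway, was at 11.7 ± 0.393 FPKM in control and 12.97 ± 0.585 FPKM in I13 libraries (SD, n = 3 each). For ERP44 the log2 fold change was 0.15 (unadjusted p = 0.0427, adjusted p = 0.947 from limma). Of the 17 tested genes of this list, the groups did not overlap for 2 with I13 higher and 3 with I13 lower. Among all genes tested these shares were 4.88% and 4.64%. TXNDC5 was listed at a mean of 0.387 and 0.399 FPKM, and 79.7% of its coding bases are shared with BLOC1S5-TXNDC5 on the same strand, so its level carries the same doubt as that of ASNS.

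The ATF6 list held the ER chaperones (18 genes, all tested, median 0.033). CALR (calreticulin) was at 1695 ± 51.5 FPKM in control and 1732 ± 90.4 FPKM in I13 libraries (SD, n = 3 each). HSPA5 (BiP), the chaperone that keeps the 3 sensors inactive, was at 343 ± 16.1 and 357 ± 8.27 FPKM, a log2 fold change of 0.056 (standard error 0.051). Neither passed the test. CRELD2, an ER protein of the ATF6 targets, was at 8.47, 9.30 and 10.02 FPKM in control and 10.98, 10.9 and 10.9 FPKM in I13 replicates 1, 2 and 3. All I13 libraries were above all control libraries. By limma CRELD2 differed by 0.24 ± 0.073 (log2 fold change, standard error), at an unadjusted p of 0.0137 and an adjusted p of 0.875. The 4 libraries gave 0.30 and the pair 0.11. The unadjusted p of CRELD2 was between 0.0042 and 0.0412 in all 17 alternative settings. The other 6 list genes with an unadjusted p under 0.05 lost it in some of the 17, which were 11 for SLC1A4, 10 for CREB3, 9 for PPP1R15A, 8 for ERP44, 8 for OS9 and 5 for AARS. CREB3, an ER-bound factor related to ATF6, was at 7.10 ± 0.864 and 8.29 ± 0.331 FPKM (SD, n = 3 each), and its log2 fold change of 0.23 (unadjusted p = 0.0479 from limma) was 0.31 for the 4 libraries and 0.061 for the pair.

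ER-associated degradation was covered by 18 genes, all tested, with a median of 0.064. The groups did not overlap for 1 of the 18, OS9, a lectin that hands misfolded glycoproteins to degradation. Such separation with I13 higher was seen in 4.88% of all genes tested. It was at 31.3, 29.5 and 31.4 FPKM in control and 34.1, 33.0 and 32.7 FPKM in I13 replicates 1, 2 and 3. OS9 had a log2 fold change of 0.12 (unadjusted p = 0.0445, adjusted p = 0.947 from limma). VCP, the ATPase that pulls proteins from the ER membrane, was at 76.2 and 76.7 FPKM, and AUP1 at 44.1 and 44.8 FPKM. Neither of these passed the test.

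**Figure D5:**
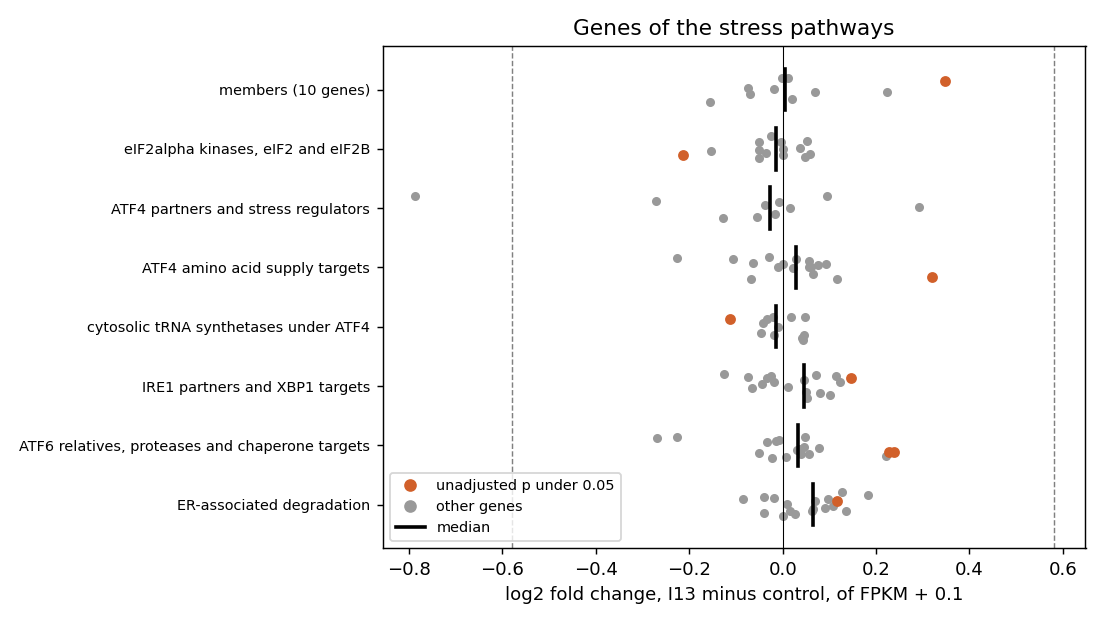
Log2 fold change, I13 minus control, on the log2(FPKM + 0.1) scale for the 10 genes and for the tested genes of the 7 lists (rows). Orange points have an unadjusted limma p under 0.05, black bars are medians and dashed lines mark 0.58. The medians lie between -0.028 and 0.064, and DDIT4 at -0.79 is the only point past a dashed line.

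By likeness over the 6 libraries, the genes that followed the mean z-score of the 4 ATF4 targets most closely were CDC25B, TMEM11, ZNF142, UBAC1 and ACD, with Pearson correlations between 0.973 and 0.983. They were found among 11399 genes at a mean of 1 FPKM or more, all measured in the same 6 libraries, and this is a description without a test. A search of this size over 6 libraries can give such correlations without any link between the genes. The 4 targets weigh equally in the score, also ASNS and DDIT3, whose spread was near the counting error or below it. CDC25B, a phosphatase of the cell cycle, was between 23.9 and 27.4 FPKM.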

How the data were processed

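Kasumi-1 libraries (3 control, 3 I13) were mapped to groups by their titles. The deposited values are FPKM for each gene in each library, in 1 table made by the authors. The submitters' processing notes name hg38, Trimmomatic, HISAT2, Cufflinks and HTSeq; they give no versions, annotation or strand setting. Symbols, exon lengths and coordinates came from GENCODE release 29. With these lengths, 95.4% of the 27002 genes above 0 gave whole fragments in all 6 libraries (tolerance 0.01), which gave the depth. For the others, DDIT3 among them, the smallest length with whole fragments was used. Depth sets the precision of low genes, and intervals of the fits cover the spread between libraries.

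FPKM were compared as log2(FPKM + 0.1) by limma 3.58.1 with a variance trend (R 4.3.3), two-sided, over genes at a mean of 0.1 FPKM or more, with Benjamini-Hochberg adjustment. On simulated data for this comparison, 164 of 200 genes changed by a fold of 2 were recovered by limma at an adjusted p under 0.05 with 29 of the unchanged genes among 17758, and 182 of 189 by voom with 13 unchanged genes among 12850. The 29 are a larger part of the limma calls than an adjusted p of 0.05 stands for. The simulation gave all genes 1 median dispersion (0.0038), changed only genes at a mean of 1 FPKM or more and held no outlying pair. Its recovery therefore does not give the power in these data. Replicates of a group differed by more than sampling noise (chi-square per gene between 3.21 and 9.12). For equal replicate numbers the correlations of deviations were 0.083, -0.070 and -0.017 for replicates 1, 2 and 3, so the numbers did not pair all the libraries. Across unequal numbers the correlation was 0.085 for control replicate 2 with I13 replicate 3 and 0.072 for control replicate 3 with I13 replicate 2. The other combinations of unequal numbers were all negative. The positive values match each control library with 1 I13 library, and no fit used this matching as a whole. Apart from the term for the outlying pair, no fit joined libraries across numbers. The alternatives are other pseudocounts, filters, scalings and fits, voom on recovered fragments, libraries left out, a term for the pair and a replicate block.

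The 10 genes and the 7 lists were chosen with earlier results of these data known. By rule, the named list genes are the 2 of each list with the highest mean FPKM and those with an unadjusted limma p under 0.05. KLHL24 and DDIT4 were added after their values were seen, and ERN2, NUPR1 and TXNDC5 also lie outside the rule. Promoter sequences are from RefSeq. Figures used Python 3.11.15.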

Additional observations from a re-analysis of the deposited data

How the results depend on the processing

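At an unadjusted p, 963 of all genes were called, 582 with a minimum mean FPKM of 1 and 1607 without control replicate 3 and I13 replicate 2; leaving out 1 library gave from 784 to 1295. At the adjusted p and fold, limma without a trend called 9 genes and voom 4, none of them among the 10 genes or the lists. Of the 10 genes, 1 was called, and 0 with no filter, by limma without a trend, without control replicate 3 and I13 replicate 2 or with the replicate block; leaving out 1 library gave 0 or 1. Of the list genes 7 were called, 3 with median scaling, 2 by limma without a trend, 13 with a term for the pair and 3 with the replicate block, and from 2 to 12 with 1 library left out. The 12 came without control replicate 3 and the 2 without control replicate 2; 3 were called without control replicate 1 and 4 without I13 replicate 1 or 3. The replicate numbers did not pair all the libraries, and the block changed no other count by over 1.5 times. The causes of these shifts were not tested.

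Log2 fold changes near 0 changed sign in some settings. With control replicate 3 and I13 replicate 2 left out, they were 0.011 for ATF4, 0.058 for ERN1 and 0.066 for CEBPG. With quantile normalization they were -0.011 for XBP1, 0.0019 for TRIB3 and -0.0027 for HSPA5. For TRIB3 it was 0.0038 with median scaling and 4.6e-04 by voom. With 1 library left out, the log2 fold changes ranged from -0.15 to 0.080 for DDIT3, -0.039 to 0.0086 for ATF4, -0.032 to 0.066 for XBP1, -0.051 to 0.11 for ATF6, -0.16 to 0.043 for ERN1, -0.058 to 0.094 for TRIB3 and -0.13 to 0.25 for CHAC1. Among the list genes they ranged from -0.012 to 0.12 for EIF2S2, -0.096 to 0.0051 for EIF2S3, -0.074 to 0.069 for CEBPG, -0.010 to 0.16 for SLC1A5, -0.012 to 0.086 for IARS, -0.0065 to 0.069 for CALR, -0.036 to 0.055 for VCP and -0.0097 to 0.092 for AUP1. No gene with a changed sign had an unadjusted p under 0.05 on all 6 libraries. For genes with under 100 fragments, such as ASNS, CHAC1 and DDIT3, depth limits what can be seen.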
